A study of Mus musculus with 3 samples.

Results

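Cytosolic ribosomal protein genes encode the protein parts of the large (Rpl) and small (Rps) subunits of the ribosome, the particle that translates messenger RNA in the cytoplasm. The genes were taken by symbol, as those starting with Rpl or Rps and a digit, without the S6 kinases (Rps6k) and without numbered pseudogenes. Of the 32285 genes in the files, 82 met this rule, 49 of them Rpl and 33 Rps genes. Core ribosomal proteins made up 73 of the 82. The other 9 are paralogues or associated proteins (Rpl3l, Rpl7l1, Rpl10l, Rpl22l1, Rpl36al, Rpl39l, Rps19bp1, Rps27l and Rps27rt). The symbol rule misses a few true ribosomal proteins with other names, such as Rplp0, Rplp1, Rplp2, Rpsa, Fau and Rack1, which are given separately.

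The measurements are single-cell RNA sequencing counts from brain cells sorted as CD45int CD11b+, a gate aimed at microglia, the resident macrophages of the brain. All mice were APOE knockouts. The groups were sham induction with PBS, NMOSD induction with a control peptide (NMOSD stands for neuromyelitis optica spectrum disorder, in which antibodies attack the optic nerves and spinal cord), and NMOSD induction with the peptide APOE130-149, all taken on day 4. Each group was 1 library made from the pooled brains of 4 mice, so mice cannot be told apart, differences between groups lack replicates, and no test was made. Neither age, sex nor strain of the mice is given in the labels. Apoe, the gene knocked out, was counted at 80.0, 115 and 126 CPM (counts per 1000000 counts of the cells summed) in microglia of the sham, control peptide and APOE130-149 libraries. Of the other cell classes described below, border-associated macrophages had 1053, 927 and 1044 CPM of Apoe and monocytes 564, 188 and 492 CPM. Neutrophils had 1.92, 14.5 and 29.4 CPM. A 3′ tag can lie outside the altered part of the gene, so these levels do not check the genotype.

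Ribosomal proteins are made in near equal numbers, one of nearly every kind per ribosome, and their messenger RNAs are among the most abundant in most cells. Many of these messenger RNAs begin with a C followed by an unbroken run of C and U, the 5′ terminal oligopyrimidine (TOP) motif, through which the kinase mTOR and the protein LARP1 control their translation and storage. In myeloid cells the ribosomal share of the RNA differs with maturity: precursors translate heavily, whereas mature neutrophils are known for a small RNA content.

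The starts of 8 genes named in the results are printed here, because the TOP run at the start is the feature the family is known for. They are a selection in which the run is more common than in the family. Among other genes named below, some, such as Rpl39, Rpl18 and Rps18, also held a run. Others, such as Rpl10a, Rps19, Rpl37, Rpl37a, Rps7, Rps3 and Rps4x, held none. Each line holds 30 bases before and 20 bases from the RefSeq start, 5′ to 3′ on the gene's strand, in GRCm38.p6 (the same assembly as mm10), with a C followed by at least 4 bases that are each C or T in capitals where such a run begins within 5 bases of the start.
Rpl38, chr11:114668550-114668599, plus strand: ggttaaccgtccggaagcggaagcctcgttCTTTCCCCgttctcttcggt
Rps27, chr3:90213629-90213678, minus strand: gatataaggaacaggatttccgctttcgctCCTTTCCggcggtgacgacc
Rps27rt, chr9:114982720-114982769, minus strand: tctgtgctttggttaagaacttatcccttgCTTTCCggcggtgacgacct
Rpl35, chr2:39005112-39005161, minus strand: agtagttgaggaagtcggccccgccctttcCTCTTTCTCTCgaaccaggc
Rps28, chr17:33824543-33824592, minus strand: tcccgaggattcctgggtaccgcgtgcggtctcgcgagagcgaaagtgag
Rps2, chr17:24720033-24720082, plus strand: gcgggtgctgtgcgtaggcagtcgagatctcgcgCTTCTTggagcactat
Rpl12, chr2:32961682-32961731, plus strand: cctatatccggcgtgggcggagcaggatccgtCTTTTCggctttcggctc
Rpl13a, chr7:45128726-45128775, minus strand: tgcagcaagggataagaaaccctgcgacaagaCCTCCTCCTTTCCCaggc
Rps27 and its retrogene copy Rps27rt share the bases that follow the run, so reads of these near-identical genes could be split between them and both levels are uncertain. Start windows were found by symbol for 63 of the 82 genes, and 28 of the 63 (44.4%) held such a run in the first window, against 18.5% of 27025 genes with a window. On the opposite strand the same search gave 12.7% of the ribosomal protein genes and 21.0% of all genes. Among 69 mitochondrial ribosomal protein genes, which belong to the separate ribosome of the mitochondrion, 15 (21.7%) held it. No run in a window says only that these letters are not at the annotated start.

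The libraries held 32712199, 61469677 and 32060750 unique molecular identifiers (UMIs, 1 per captured RNA molecule) in 4674, 5306 and 2175 barcodes, in the order sham, control peptide and APOE130-149. Ribosomal protein genes took 11.3%, 11.1% and 10.5% of all UMIs. Requiring 500 or more genes and no more than 10% mitochondrial UMIs left 4231, 5011 and 2025 cells, which were sorted into 4 classes by marker genes, none of them a ribosomal protein gene. Microglia made up 3392, 4239 and 1695 cells, border-associated macrophages (macrophages of the meninges and vessel walls) 19, 17 and 21, neutrophils 44, 75 and 43, and monocytes 43, 68 and 32. The classes were defined by these marker genes, so marker levels describe the classes and do not check the labels. All 12 microglia markers were above 10 CPM in microglia of each library. P2ry12, a purinergic receptor that marks microglia, stood at 2629, 2415 and 2626 CPM in microglia. S100a9, a neutrophil protein, stood at 159563, 155018 and 171489 CPM in neutrophils. Between 11.6% and 17.3% of filtered cells met no class. The sham and control peptide libraries shared 9 barcodes, the control peptide and APOE130-149 libraries 3, and the sham and APOE130-149 libraries 0. Intervals in brackets cover 95% counting error only.

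In microglia, ribosomal protein genes were among the most abundant transcripts. Their share of microglial UMIs was 10.986% [10.975, 10.998] in sham, against 10.94% [10.93, 10.95] for the control peptide library and 10.15% [10.14, 10.16] for APOE130-149. Of the 135 genes above 1000 CPM in sham microglia, 56 were ribosomal protein genes, and the median gene of the family stood at 1328, 1359 and 1245 CPM in the 3 libraries, against 38.5, 37.7 and 38.2 CPM for all genes of at least 10 CPM. Each captured molecule gives 1 UMI, read near its 3′ end, so these levels count captured molecules and were not divided by transcript length. Whether capture differed with transcript length was not tested. Rps29, a zinc-binding protein of the small subunit head, was highest, at 4540.3, 3027 and 3719 CPM. Rps24 followed at 2446, 2570.3 and 2225 CPM and Rps12 at 2381.5, 2447 and 2229.6 CPM. The large subunit genes Rpl27a (2315, 2387 and 2114 CPM), Rpl23 (2292, 2391 and 2160.5 CPM) and Rpl41 (2239.6, 1922 and 2063 CPM), the last of which encodes a very short peptide at the contact between the subunits, completed the 6 highest of sham. Large and small subunit genes kept an almost fixed balance, with 1.22, 1.23 and 1.23 UMIs of Rpl per UMI of Rps. From cell to cell the 2 shares moved together, with Pearson correlations of 0.957, 0.962 and 0.964 over the microglia of each library (a description, since the cells share a library and both shares have the same total).

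The paralogues and associated genes were the lowest of the family in microglia. Rpl36al, a copy of Rpl36a, reached 421, 441 and 403 CPM in microglia and Rpl22l1, a paralogue of Rpl22, 209.6, 260.4 and 246 CPM. Rps27l stood at 138, 146 and 145 CPM, Rps27rt at 118, 101 and 113 CPM, Rpl7l1 at 74.3, 71.5 and 68.2 CPM, and Rps19bp1, which encodes a binding partner of Rps19, at 27.0, 26.3 and 29.5 CPM. The remaining 3 were below 10 CPM in microglia of all 3 libraries. Rpl39l, a paralogue of Rpl39 known from testis, had 98, 222 and 55 UMIs (3.37, 4.39 and 2.14 CPM), and Rpl3l, the muscle paralogue of Rpl3, had 2, 1 and 0. Rpl10l, another paralogue known from testis, had no UMI in microglia; 3 UMIs, the limit taken for a count of 0, equal 0.103, 0.0593 and 0.117 CPM, and the exact 95% intervals reach 0.127, 0.0729 and 0.143 CPM. The other 79 genes enter the comparisons below.

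Single microglia differed widely in their ribosomal share. After each cell was thinned to 2000 UMIs, which left out 444, 123 and 88 shallower cells, the share had a median of 10.1%, 10.2% and 9.45%, and the 10th and 90th percentiles were 6.6% and 15.6% in sham, 6.95% and 14.5% in the control peptide library, and 6.50% and 13.8% in the APOE130-149 library. The SD between cells was 3.64, 3.03 and 3.01 percentage points, whereas sampling 2000 UMIs at the mean share gives an SD of 0.689, 0.686 and 0.666. Unthinned, the SD was 3.93, 3.09 and 3.01 percentage points.

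**Figure D1:**
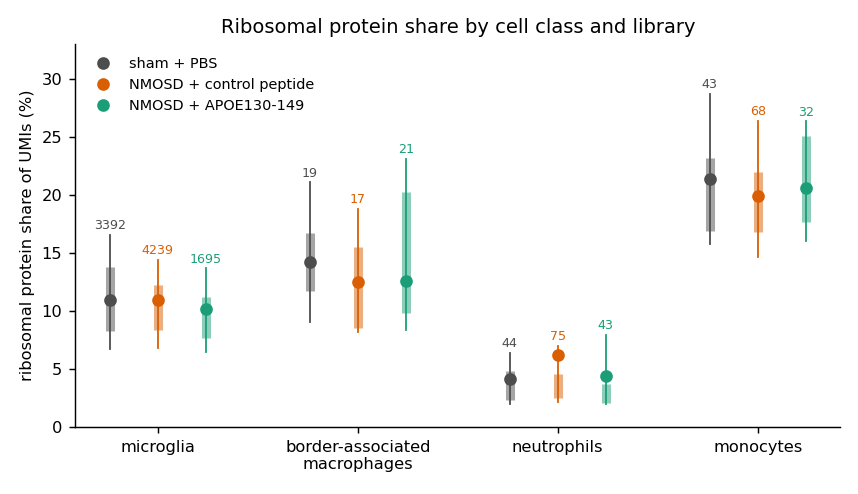
Ribosomal protein share of UMIs (percent, vertical axis) in 4 cell classes and 3 libraries. Points are the share of the summed UMIs, thick bars the middle 50% and thin lines the middle 80% of cells, and the numbers above count the cells. Monocytes sit between 19.9% and 21.4%, microglia between 10.15% and 10.986% and neutrophils between 4.19% and 6.19%.

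Against sham, microglia of the control peptide library had nearly the same summed share (log2 ratio -0.0062 [-0.0081, -0.0042]). The log2 ratio was 0.06 with TMM scaling and 0.07 with median-of-ratios scaling, so its sign depends on the scaling. Within that even total the genes split. Of the 79 genes, 53 were higher and 26 lower with the control peptide, with a median log2 ratio of 0.07, against -0.08 over the 8488 genes of at least 10 CPM. At least 1.2-fold lower were 9 of the 79, and 17.3% of all 8488 genes were that far below. At least 1.2-fold higher were 2 of the 79, where 5.27% of all genes were; with either scaling the split was 9 higher and 9 lower. The single gene at least 1.5-fold apart, Rps28, was lower, as were 0.978% of all genes.

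The 9 lower genes encode small proteins of both subunits. Rps28, a protein at the messenger RNA exit of the small subunit, stood at 1711, 1138 and 1415 CPM in the sham, control peptide and APOE130-149 libraries, a control peptide to sham log2 ratio of -0.59 [-0.61, -0.57]. Rps29 had 4540.3, 3027 and 3719 CPM (log2 ratio -0.58 [-0.60, -0.57]). In both genes sham was highest, the control peptide library lowest and APOE130-149 between them. Rpl38, a large subunit protein known for its part in skeletal patterning in mice, had 1166, 818 and 963 CPM (log2 ratio -0.51), and Rps27, a zinc-finger protein of the small subunit, had 1863, 1313 and 1468 CPM (log2 ratio -0.50). Rpl35, at the exit of the tunnel through which the new protein leaves, had 737, 541 and 621 CPM (log2 ratio -0.45). The remaining 4 were Rpl39, a protein lining that tunnel (2169.9, 1599.5 and 1709 CPM, log2 ratio -0.44), Rps21 (2157, 1622 and 1813.5 CPM, log2 ratio -0.41), Rpl37 (2169, 1678 and 1825 CPM, log2 ratio -0.37) and Rpl37a (2127, 1669 and 1766 CPM, log2 ratio -0.35). Every one of the 9 had the same order of libraries. Rps28 and Rpl35 overlap exons of genes on the opposite strand (Kank3, and Arpc5l and Wdr38), and whether the counting used strand is not given in the sources used here.

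At the other end, Rps2, a core protein of the small subunit near the messenger RNA entry, had 877, 1116 and 920.5 CPM in the same order, a control peptide to sham log2 ratio of 0.35 [0.33, 0.37]. Rpl22l1 had a log2 ratio of 0.31, Rpl29 of 0.25 (727, 866 and 773 CPM), Rpl18 of 0.23 and Rps3 of 0.22. Rps2 overlaps Snhg9, and Rpl22l1 overlaps Gm33051, on the opposite strand.

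The genes with the shortest transcripts were all on the lower side. Lengths of the principal coding transcript were found for 76 of the 82 genes and ran from 271 bases (Rps28) to 3706 bases, with a median of 705 against 2127.5 over 17046 genes. All 7 genes with a transcript under 400 bases (Rps28, Rps27, Rpl38, Rps27rt, Rpl36, Rps29 and Rps21) were lower in control peptide microglia than in sham, with log2 ratios from -0.59 to -0.23 and a median of -0.50, while the other 66 genes with a length and at least 10 CPM had a median of 0.07. The pattern was not limited to ribosomal proteins: the 6 other genes with transcripts under 400 bases and at least 100 CPM had log2 ratios from -0.55 to -0.25, with a median of -0.46. Among them, Atp5k, Atp5md and Atp5mpl encode small proteins of the mitochondrial ATP synthase, and mt-Nd3 and mt-Nd4l are encoded in mitochondria. Among other genes of at least 100 CPM the ratio did not climb steadily with length: the median was -0.03 for 58 genes of 400 to 600 bases, 0.13 for 73 of 600 to 800, 0.11 for 59 of 800 to 1000, 0.09 for 301 of 1000 to 2000 and -0.10 for 705 of 2000 bases or more. Across 68 core genes, length and log2 ratio had a Spearman correlation of 0.39, a description over genes that share libraries and are not independent. Rpl35, Rpl37, Rpl37a and Rpl39 were low with annotated transcripts of 946, 835, 558 and 612 bases. The length limit was chosen after the values were seen, and the part of transcript length in the difference was not tested.

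**Figure D2:**
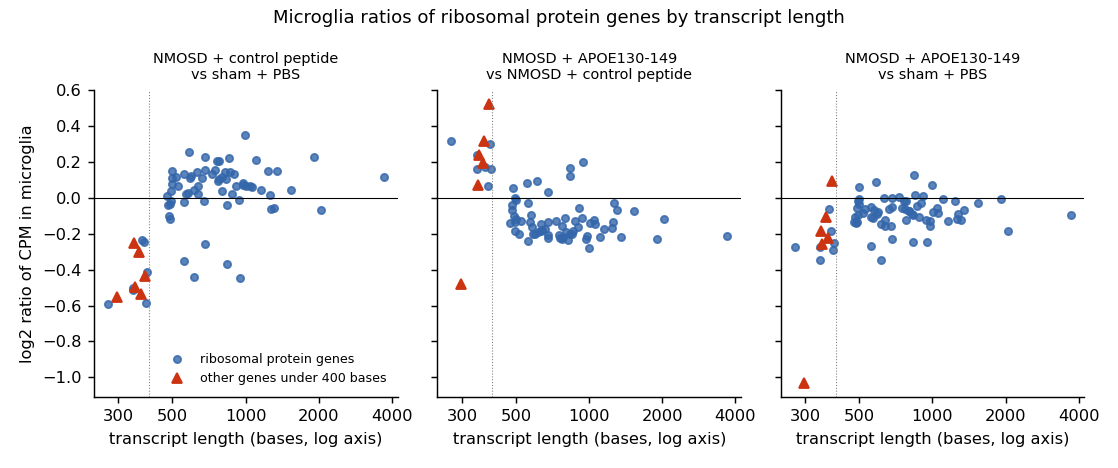
Log2 ratio of CPM in microglia (vertical axis) against the length of the principal transcript (bases, log axis) for 3 comparisons. Circles are ribosomal protein genes of at least 10 CPM and triangles the 6 other genes under 400 bases (dotted line); in the left panel all 7 circles and 6 triangles left of the line lie below 0, between -0.59 and -0.23.

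The same genes were low in the control peptide library in other cells. All 7 short genes were also lower than in sham in border-associated macrophages (median log2 ratio -0.41, against -0.16 for the other ribosomal protein genes) and in monocytes (-0.64 against -0.02). In neutrophils, where the summed share was higher with the control peptide than in sham (log2 ratio 0.56), 1 of the 7 was lower and 6 were higher, yet 6 of the 7 lay below the family's median (median 0.17 against 0.64 for the others). Rps29 in monocytes had 6125, 3877 and 4717 CPM in the sham, control peptide and APOE130-149 libraries, and in border-associated macrophages 7006, 4725 and 6322 CPM. In neutrophils its levels were close together, at 1337, 1410.2 and 1210.0 CPM.

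**Figure D3:**
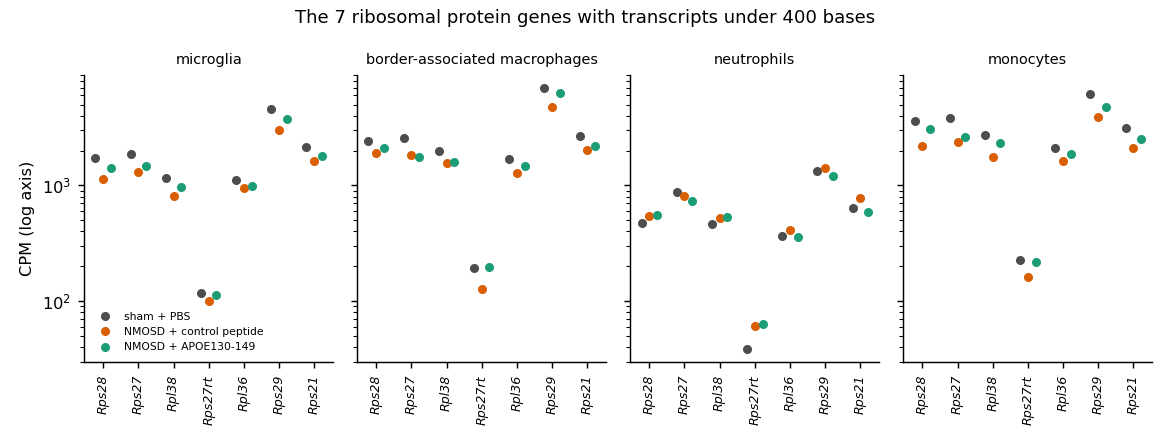
CPM (log axis) of the 7 ribosomal protein genes with transcripts under 400 bases in 4 cell classes, ordered by length, with 1 point per library. In microglia, border-associated macrophages and monocytes every gene is lower with the control peptide than in sham; in neutrophils only Rps27 is.

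APOE130-149 microglia had a lower ribosomal share than control peptide microglia (10.15% against 10.94%, log2 ratio -0.11 [-0.11, -0.11]). Of the 79 genes, 64 were lower and 15 higher, with a median log2 ratio of -0.14 against 0.01 over 8380 genes. At least 1.2-fold higher were 2 genes, Rps28 (1.24-fold) and Rps29 (1.23-fold), while 4.87% of all genes were that far above. At least 1.2-fold lower was Rps2 (1.21-fold), while 2.12% of all genes were that far below; with TMM scaling the counts were 1 higher and 6 lower, and with median-of-ratios scaling 1 higher and 5 lower. After Rps2 the lowest ratios belonged to small subunit genes: Rps18 (1323 and 1119 CPM with the control peptide and APOE130-149), Rps7 (1474 and 1250.1 CPM), Rps3 (1401 and 1193 CPM) and Rps4x (1455 and 1240.6 CPM), all with log2 ratios between -0.24 and -0.23. Rpl38 (log2 ratio 0.24), Rpl35 (0.20) and Rps27rt (0.17) followed Rps28 and Rps29 at the upper end. All 7 short genes were higher with APOE130-149 than with the control peptide, with a median of 0.17.

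Against sham, the APOE130-149 library was lower in 69 of the 79 genes and higher in 10 (median log2 ratio -0.09 against -0.05 over 8514 genes), and its summed share was lower by a log2 ratio of -0.11 [-0.12, -0.11]. At least 1.2-fold lower were 6 genes, against 13.9% of all genes, and at least 1.2-fold higher none, against 5.52% of all genes; with TMM scaling 2 were lower and 0 higher, and with median-of-ratios scaling 2 lower and 1 higher. The 6 lowest were Rpl39 (log2 ratio -0.34), Rps27 (-0.34), Rps29 (-0.29), Rpl38 (-0.28), Rps28 (-0.27) and Rpl37a (-0.27). The highest were Rpl22l1 (0.23), Rps19bp1 (0.13 [-0.02, 0.27]), Rpl29 (0.09), Rps2 (0.07) and Rps27l (0.06 [-0.002, 0.13]). The 3 comparisons share libraries, so they are not independent of each other.

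Other genes of translation differed little in microglia. Among ribosomal proteins outside the symbol rule, Rplp0, of the stalk that recruits translation factors, had 1209, 1353 and 1174 CPM, Rplp1 3204, 3122 and 2762 CPM, Rplp2 1674, 1485 and 1409.7 CPM, Rpsa 1023, 1177 and 1048 CPM, Fau 3687, 3705 and 3416 CPM, and Rack1 806, 844 and 762 CPM. Of 13 elongation factors and other translation genes, 12 were higher with the control peptide than in sham and 12 were lower with APOE130-149 than with the control peptide, none by 1.2-fold, with medians of 0.10 and -0.12. Eef1a1, which carries aminoacyl-tRNA to the ribosome, had 2953, 3156 and 3025 CPM. Among 19 genes of ribosome biogenesis above the minimum, 3 were at least 1.2-fold higher and 1 lower with the control peptide than in sham. Npm1, a nucleolar chaperone, had 369, 396 and 339.9 CPM. Genes of mTOR control, of which 2 of 9 were at least 1.2-fold lower with the control peptide than in sham, included Mtor (16.9, 15.2 and 15.97 CPM), Rps6kb1 (83.9, 69.9 and 71.1 CPM), Eif4ebp1 (35.3, 38.7 and 38.1 CPM) and Larp1 (115, 119 and 116 CPM). Of 76 mitochondrial ribosomal protein genes, 60 were higher with the control peptide than in sham (median log2 ratio 0.11, 5 at least 1.2-fold), and 56 were lower with APOE130-149 than with the control peptide (median -0.06, none by 1.2-fold).

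Monocytes held the highest ribosomal protein share, 21.4% [21.3, 21.5], 19.9% [19.8, 19.98] and 20.6% [20.5, 20.7] in the sham, control peptide and APOE130-149 libraries. Against microglia of the same library this was 1.94-, 1.82- and 2.03-fold (mean log2 ratio 0.95 ± 0.08, SD over the 3 libraries). The lowest summed share of monocytes lay above the highest summed share of microglia. Single cells overlapped: monocytes ran down to 9.81%, 7.84% and 5.23%, and microglia up to 32.3%, 25.4% and 25.9%. Monocytes also had more UMIs per cell (medians of 14393, 13237 and 17167.5 against 7810.5, 7924 and 10096), and the part of depth in the ratios was not tested. Of the 79 genes, 70 were at least 1.5-fold higher in all 3 libraries, where 16% of 7722 genes were. The family's median log2 ratio was 0.99, 0.87 and 1.04, against -0.28, -0.22 and -0.25 over all genes. Rps19, which is needed for the maturation of the small subunit, was highest, with 3000.0, 2940.1 and 3090.6 CPM in monocytes and 1092, 1208 and 1093 CPM in microglia. Rpl8 followed (2214, 2434 and 2377 CPM against 844, 982 and 854 CPM), then Rpl36al and Rps27l, with mean ratios of 2.61- and 2.59-fold. The lowest were Rpl7l1 (72.0, 68.7 and 55.9 CPM, against 74.3, 71.5 and 68.2 CPM in microglia), Rps19bp1 (mean log2 ratio 0.32 ± 0.32), Rps29 (0.38 ± 0.05) and Rps21 (0.46 ± 0.09). The small subunit genes had a median of 1.02 and the large subunit genes of 0.90. Of the other lists, the 13 elongation and translation genes were all higher in all 3 libraries (median 0.87) and mitochondrial ribosomal proteins had a median of 0.47, whereas genes of ribosome biogenesis had 0.23. Among the monocyte-gated cells, 15, 20 and 11 had a UMI of the dendritic cell genes Flt3, Cd209a, Xcr1 or Clec9a; without them the mean log2 ratio was 0.85. Malat1, a nuclear RNA, stood at 8847, 7749 and 5641 CPM in monocytes and at 24206, 21399 and 20457 CPM in microglia, and its part in the ratios was not tested.

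**Figure D4:**
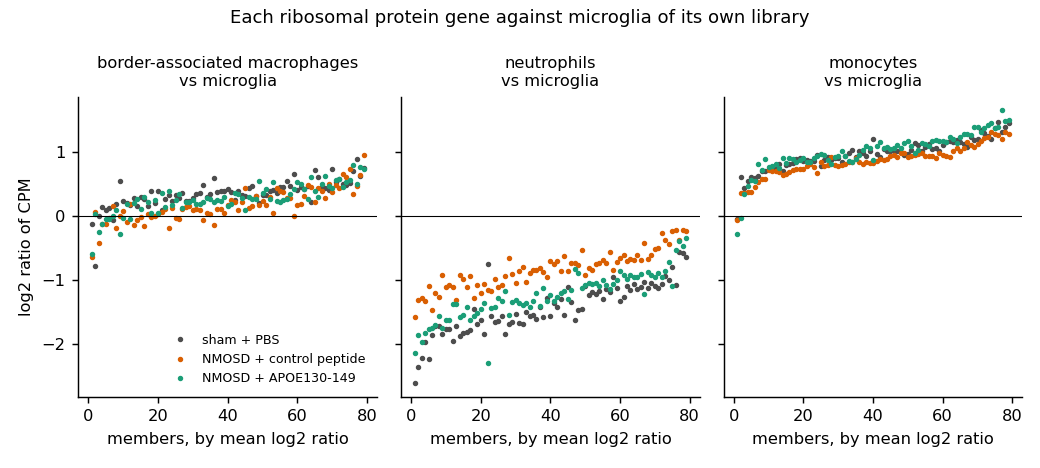
Log2 ratio of CPM (vertical axis) of each of 79 ribosomal protein genes in 3 cell classes against microglia of the same library, with genes ordered by their mean ratio and 1 point per library. In monocytes 77 genes lie above 0 in all 3 libraries, and all points lie below 0 in neutrophils, where the median of the control peptide library (-0.84) is above the others (-1.46 and -1.23).

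Neutrophils held the lowest share: 4.19% [4.14, 4.25], 6.19% [6.14, 6.24] and 4.44% [4.38, 4.49] in the same order of libraries, or 0.381-, 0.566- and 0.437-fold of microglia (mean log2 ratio -1.14 ± 0.29). All 79 genes were lower in all 3 libraries and 66 at least 1.5-fold, but 51.6% of 7383 genes were that far below as well, and the median of all genes was -1.04, -0.86 and -1.002 where that of the family was -1.46, -0.84 and -1.23. Neutrophils devote much of their RNA to a few granule and cytoplasmic proteins, and the marker genes took 40.1%, 38.9% and 41.6% of their UMIs, against 2.91%, 3.07% and 3.14% in microglia. With marker genes left out of the total the ribosomal share was 6.99%, 10.1% and 7.595% in neutrophils and 11.3%, 11.3% and 10.5% in microglia (mean log2 ratio -0.44 ± 0.27), and 8 of the 79 genes were at least 1.5-fold lower in all 3 libraries, where 29% of 7345 genes were. On the full total, Rpl10a was lowest (175, 392 and 242 CPM against 1068, 1172 and 1071.5 CPM in microglia), followed by Rpl3, of the peptidyl transferase centre (194, 444 and 261 CPM against 994, 1103 and 949 CPM), Rpl12 (252, 533 and 296 CPM against 1168, 1297 and 1154 CPM) and Rpl13a (435, 706 and 460.4 CPM against 1691, 1771 and 1625 CPM). The smallest differences belonged to Rps27a, a ubiquitin fused to a small subunit protein (1362, 1883 and 1537 CPM against 2126, 2225 and 1954 CPM), Rpl9, Rps9 and Rps27l, with mean log2 ratios from -0.41 to -0.61.

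The neutrophil share differed with the UMI count of the cell. The median neutrophil had a share of 3.003%, 3.44% and 2.65%, below the share of the summed UMIs in each library, and single cells ran up to 18.2%, 22.4% and 15.1%. Cells of at most 2 times the library's median UMI count (30, 57 and 36 neutrophils) had summed shares of 3.30% [3.23, 3.38], 3.53% [3.48, 3.58] and 3.25% [3.19, 3.31], so the libraries lay close together. The 14, 18 and 7 neutrophils above that limit had 4.92%, 8.67% and 6.85%. These cells had less Retnlg (2225, 484 and 257 CPM against 18239, 12456 and 20401 CPM) and less Cxcr2 (161, 37.8 and 52.5 CPM against 1038, 480.3 and 679 CPM), both genes of mature neutrophils. They had more of Camp, a granule gene of immature neutrophils (38410.0, 42103 and 43498 CPM against 9834, 26650 and 16937 CPM), and more of Top2a, a gene of dividing cells (133, 549.5 and 352 CPM against 0, 15.0 and 0 CPM). Of the other granule genes, Ngp was nearly level in the control peptide library (34798, 31905 and 39032 CPM against 18188, 30321 and 20543 CPM). Ltf was lower there in the deeper cells and higher in the other libraries (9431, 6565 and 9257 CPM against 5196, 8690.3 and 7509 CPM). In the deeper cells microglia markers took 0.247%, 0.316% and 0.143% of UMIs, against 0.202%, 0.102% and 0.0806% in the other neutrophils, and doublets among them were not tested. This split was chosen after the values were seen.

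Border-associated macrophages, the class with the fewest cells, had 14.2% [14.1, 14.4], 12.5% [12.3, 12.7] and 12.6% [12.4, 12.8], or 1.29-, 1.15- and 1.24-fold of microglia (mean log2 ratio 0.29 ± 0.09). The share was above that of microglia in all 3 libraries, and the ranges of the 2 classes over libraries did not overlap. Of the 79 genes, 19 were at least 1.2-fold higher in all 3 libraries, where 16.6% of 7328 genes were. At least 1.5-fold higher in all 3 were Rpl38 (1969, 1578 and 1596 CPM against 1166, 818 and 963 CPM in microglia) and Rps29 (7006, 4725 and 6322 CPM against 4540.3, 3027 and 3719 CPM), where 8.3% of all genes were. Rps27l and Rps27rt came next with a mean log2 ratio of 0.62 each and SDs of 0.24. At the lower end Rpl7l1 had a mean log2 ratio of -0.45 ± 0.28, Rps19bp1 -0.23 ± 0.48, Rpl7a -0.22 ± 0.21 and Rpl22l1 -0.04 ± 0.15, so that for Rps19bp1 and Rpl22l1 the SD exceeded the ratio. Rps19bp1 stood at 10.5, 27.5 and 30.2 CPM in this class, where 3 UMIs equal 15.7, 27.5 and 22.7 CPM. Its sham count was therefore set to 3 for the ratio. Rpl7l1, at 68.1, 45.9 and 45.4 CPM, also rests on few UMIs. Microglia markers took 0.880%, 0.742% and 0.761% of UMIs in this class and 2.80%, 2.95% and 3.01% in microglia, and Mrc1, the mannose receptor that marks border-associated macrophages, stood at 2063, 2706 and 2079.5 CPM against 18.8, 29.99 and 31.2 CPM in microglia.

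The ribosomal share also changed with the depth of the barcode, in opposite directions in the libraries. In the sham library barcodes under 2000 UMIs had a share of 14.7% [14.6, 14.8] and barcodes of 4000 UMIs or more 11.1% [11.1, 11.1], a log2 ratio of 0.41. For the control peptide the shares were 9.41% [9.34, 9.48] and 11.1% [11.1, 11.1] (log2 ratio -0.24), and with APOE130-149 7.66% [7.56, 7.76] and 10.5% [10.5, 10.5] (log2 ratio -0.45). Over the 3 classes from 4000 UMIs up the ranges overlapped: 10.0% to 12.2% (sham), 10.2% to 11.5% (control peptide) and 9.98% to 10.7% (APOE130-149). Among barcodes with 1000 or more genes and no more than 5% mitochondrial UMIs the log2 ratios kept their signs and were smaller, at 0.11, -0.08 and -0.30. Among microglia-gated cells the contrast stayed, with 14.9% against 10.9% in sham, 8.19% against 10.96% with the control peptide and 7.62% against 10.2% with APOE130-149. The shallow microglia numbered 444, 123 and 88.

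**Figure D5:**
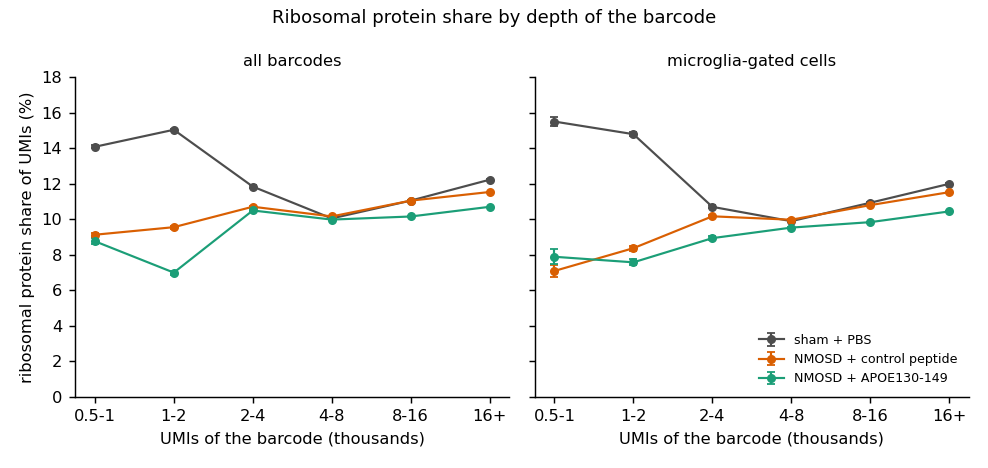
Ribosomal protein share of UMIs (percent, vertical axis) by total UMIs of the barcode (horizontal axis, in classes) for all barcodes and for microglia-gated cells, with 1 line per library and 95% counting intervals. Below 2000 UMIs sham lies between 14.1% and 15.5% and the NMOSD libraries between 6.99% and 9.55%; from 4000 UMIs on all lines run between 9.53% and 12.2%.

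Counts of single genes are read against the share of all genes. Under 2000 against 4000 UMIs or more, 13 of 79 genes were at least 1.5-fold higher and none 1.5-fold lower in sham (6.2% of 8323 genes were that far above), 5 were lower with the control peptide (8.29% of 8410 genes, so not above that share) and 18 were lower with APOE130-149 (13.1% of 8444 genes). In microglia-gated cells the counts were 25 higher in sham (11.8% of 8303 genes), 17 lower with the control peptide (10.4% of 8270 genes) and 14 lower with APOE130-149 (7.87% of 8243 genes). Rps24 had 3999 CPM in shallow and 2472 CPM in deep sham barcodes, 2729.5 and 2633 CPM with the control peptide and 1968 and 2325 CPM with APOE130-149. Rps29 had 6446 against 4519 CPM in sham, 2548 against 3018 CPM with the control peptide and 2865 against 3766 CPM with APOE130-149. Some genes did not take part in the sham excess: Rpl23a, at the tunnel exit, was lower in shallow barcodes of every library (759 against 1054 CPM, 589 against 1032 CPM and 629 against 1026 CPM), as were Rps15 (1071 against 1261, 808 against 1360.2 and 768 against 1272 CPM) and Rpl31. Highest in shallow barcodes were Rps27rt, Rps24, Rps27l and Rpl38, with mean log2 ratios of 0.37, 0.17, 0.11 and 0.10 and SDs of 0.38 or more.

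Malat1 and mitochondrial genes also differed between shallow and deep barcodes, each with its own pattern. Malat1 went opposite to the ribosomal share in each library: it stood at 7114 CPM in shallow and 23992 CPM in deep sham barcodes, whereas it was 28929 against 20235 CPM with the control peptide and 28364 against 19063 CPM with APOE130-149. Over all barcodes, mitochondrial genes took more of the UMIs in shallow barcodes of all 3 libraries (3.29%, 7.71% and 6.42% against 2.24%, 2.72% and 2.39%). Among microglia-gated cells the sham library went the other way, with 1.47% in shallow and 2.26% in deep cells. There the control peptide library had 3.51% against 2.69% and the APOE130-149 library 2.85% against 2.37%. P2ry12 in shallow barcodes was 2369, 1889.9 and 2046 CPM, so they carried microglial RNA in each library. The part of nuclear RNA, damage or free RNA in these differences was not tested, and a property of the library cannot be told apart from its group.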

How the data were processed

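Single-cell 3′ libraries of sorted brain cells, 1 per group, were deposited as matrices of UMI counts, whole numbers with no normalization, per the file headers. The tools were Cell Ranger 5.0.1 and Seurat 4.3.0 with mm10, per the submitters' processing notes, and the file headers name cellranger 7.0.1. Whether intronic reads or strand entered the counts is not given in the sources used here; reads of overlapping antisense genes may therefore be mixed, which concerns 18 of the 82 genes.

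The genes, lists, marker genes and alternatives were chosen with earlier results of these data known. Cells with 500 or more genes and no more than 10% mitochondrial UMIs were assigned by marker UMIs per 10000: microglia at 100 or more with other lists low, border-associated macrophages at 30 or more, neutrophils at 200 or more and monocytes at 20 or more, each with at least 3 markers detected. These limits were set after the data were seen. Within 50 to 150 microglia marker UMIs per 10000 lay 137, 191 and 100 cells. Doublets were kept; an alternative left out cells above 2 times the library's median.

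UMIs were summed per library and class and scaled to CPM. Intervals are exact (Poisson, Clopper-Pearson, conditional for ratios) at 95% and cover counting error only. Ratios to microglia and between depths were formed within a library and are given as the mean and SD over 3 libraries of different groups. With 1 library per group, differences between groups could not be tested, and the ratios over 3 libraries are given without a test. Genes needed at least 10 CPM in either library, or as the mean of both sides in every library; a count under 3 was set to 3. Named genes were the 6 most abundant, the 5 (comparisons) or 4 (classes, depth) at each end, and all paralogues; Rpl37, Rpl37a, Rps21, Rpl36 and the short genes were added after their values were seen. A few genes that the rule names are not reported here. Transcript lengths and overlaps came from GENCODE vM21 on GRCm38, and start sequences from RefSeq (GRCm38.p6). The ratio and interval code was tested on simulated data. Python 3.11.15, numpy 2.4.6, scipy 1.17.1, pandas 2.3.3, matplotlib 3.10.9, and edgeR 4.0.16 under R 4.3.3 (for TMM factors alone) were used.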

Additional observations from a re-analysis of the deposited data

Results flagged for a closer look

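The ribosomal protein share of shallow against deep barcodes (under 2000 against 4000 UMIs or more) stands out because the libraries moved in opposite directions: the log2 ratio was 0.41, -0.24 and -0.45 in the sham, control peptide and APOE130-149 libraries. With 1 library per group the difference between libraries was not tested. The opposite signs were also present in barcodes that passed the cell filter (0.49, -0.09 and -0.42) and with mitochondrial and Malat1 UMIs left out of the total (0.40, -0.15 and -0.38).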

How the results depend on the processing

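No paired analysis was possible because each group is 1 library and its 4 mice were pooled. This concerns comparisons between groups, for which no replicate could be left out; ratios to microglia and between depths were formed within each library. The control peptide to sham ratio of the microglial ribosomal share changed sign with the setting: the log2 ratio was -0.0084 with no cell filter, 0.0022 with the stricter filter (1000 genes, 5% mitochondrial UMIs), -0.0011 with a stricter gate, -0.035 without cells above 2 times the median of UMIs, -0.0996 as a mean over cells, -0.015 after thinning, -0.0036 without mitochondrial and Malat1 UMIs, -0.019 in cells of 4000 to 16000 UMIs, 0.060 with TMM and 0.073 with median-of-ratios scaling. APOE130-149 against the control peptide stayed negative: -0.103 (stricter filter), -0.097 (stricter gate), -0.082 (without cells above 2 times the median), -0.0998 (mean over cells), -0.092 (thinned), -0.114 (without mitochondrial and Malat1 UMIs), -0.095 (4000 to 16000 UMIs), -0.144 (TMM) and -0.143 (median of ratios). APOE130-149 against sham also stayed negative: -0.101 (stricter filter), -0.098 (stricter gate), -0.117 (without cells above 2 times the median), -0.199 (mean over cells), -0.106 (thinned), -0.117 (without mitochondrial and Malat1 UMIs), -0.084 (TMM) and -0.070 (median of ratios). Counts of genes past 1.2-fold that moved were, for the control peptide against sham, 1 higher without cells above 2 times the median and in cells of 4000 to 16000 UMIs, and 9 higher with either scaling. For APOE130-149 against the control peptide they were 0 lower with the stricter filter, the stricter gate or without cells above 2 times the median, 1 higher and 6 lower with TMM, and 1 higher and 5 lower with median of ratios; against sham, 1 higher with the stricter gate or median of ratios, and 2 lower with either scaling. Over the 20 single-gene ratios past 1.2-fold, 160 alternative values all kept their direction and 138 stayed past 1.2-fold. Against microglia, border-associated macrophages had 0.46 as a mean over cells and 0.44 after thinning, with 4 genes at least 1.5-fold higher without cells above 2 times the median. Neutrophils had -1.62 without those cells and -0.44, with 8 genes lower, with marker genes left out of the total, and monocytes 0.85 without cells that had dendritic cell genes. The depth ratio kept its sign within each library under all settings run; without the sham library its mean was -0.35. The settings that left out marker genes, cells with dendritic cell genes, shared barcodes or the sham library, and the depth ratios in filtered or microglia-gated cells, were chosen after seeing the data. The cause of these changes was not tested. Small classes limit single genes: 3 UMIs equal 15.7 to 27.5 CPM in border-associated macrophages.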
